A study of Mus musculus with 14 samples.

Results

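Keratins are the intermediate filament proteins of epithelial cells. The 9 genes described here are those that mark the layers of lung epithelium: the simple keratins Krt7, Krt8, Krt18 and Krt19, the basal keratins Krt5, Krt14 and Krt15, Krt17, which is known from basal cells and injured epithelium, and Krt4, a keratin of stratified and secretory airway epithelium. They were the 9 genes of 18193 on the array chosen by symbol, as keratins known from lung epithelium, and 15 probe sets, the groups of probes that measure 1 transcript, carried exactly 1 of these symbols. A further probe set annotated with both Krt17 and Krt14 was left out.

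A filament is built from pairs of 1 type I and 1 type II keratin. Krt8 with Krt18 is the classical pair of simple epithelium, and Krt5 with Krt14 that of basal cells. In the lung the simple keratins are found in alveolar and airway epithelium and in the mesothelium that covers the organ, the basal keratins mark the stem cells of the large airways, and a strong rise of Krt8 marks the transitional cells that appear when injured alveoli are repaired. Keratin filaments are anchored to neighbouring cells at desmosomes and to the basement membrane at hemidesmosomes, whose laminin-binding integrins are partners of the tetraspanin CD151.

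RNA was measured in whole lungs of C57BL/6 mice aged 20 weeks on Affymetrix 1-colour arrays, with 1 array per sample. Mice lacking the tetraspanin CD151 (CD151KO) gave 5 samples, mice lacking the tetraspanin CD9 (CD9KO) gave 5, and wild type mice gave 4, numbered 1, 3, 4 and 5. The study's title places CD151 in the upkeep of the lung epithelium and in protection from fibrosis, so the question was whether keratin transcripts differed in lungs without CD151 or without CD9. The sources used here say neither how the knockout alleles were made nor whether each sample was a separate animal. A p-value below therefore reflects the scatter among these arrays, part or all of which may be technical.

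The targeted genes fit the labels. Cd151 had a signal of 1058 ± 17.7 in CD151KO lungs (SD, n = 5) and 5329.6 ± 372 in wild type lungs (n = 4), and Cd9 had 667 ± 52.3 in CD9KO lungs (n = 5) and 8096 ± 69.4 in wild type lungs (n = 4). Markers of lung epithelium were bright, with a summed signal of 9 alveolar type 2 markers of 107301 to 110876 in CD151KO, 101184 to 105777 in CD9KO and 101591 to 109746 in wild type. Array medians lay between 84.1 and 86.2, and the number of arrays limits the precision. On the first principal component, with 37.5% of the variance, array number 1 of CD151KO (-17.2) and of wild type (-18.5) lay apart from the other 12 (-8.01 to 13.4). All 5 CD9KO arrays (7.23 to 13.4) lay above every array of CD151KO and wild type (at most 2.46). Values on the component rose with the replicate number in wild type (-18.5, -4.97, 0.814 and 1.48) and in CD151KO (-17.2, -8.01, -4.80, 1.11 and 2.46). In CD9KO number 4 (13.4) lay above number 5 (9.89). The part of this component in the differences below was not tested.

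The 9 genes lie in the keratin clusters of the mouse genome (assembly GRCm38.p6). Of the type I genes, Krt15, Krt19, Krt14 and Krt17 lie in that order within 129.3 kb of chromosome 11 (100131759 to 100261029). The type II genes Krt7, Krt5, Krt4 and Krt8 lie in that order on chromosome 15, followed by the type I gene Krt18, within 619.6 kb (101412403 to 102032026). Krt18 is the only member of its type outside the chromosome 11 cluster, and it starts 23.9 kb from the end of Krt8 at which that gene's transcription begins. The promoter table of RefSeq held 5 of the 9 genes (Krt5, Krt7, Krt8, Krt14 and Krt18). The 150 bases just upstream of the annotated start are shown for the simple keratins, on which most of the values below rest: Krt8 and Krt18, the neighbouring partners, and Krt7. Each is written 5′ to 3′ on the gene's own strand. Capitals mark the GC box GGGCGG or its reverse complement and the letters ATAAAAG, close to those of the TATA box, which were added to the search after the sequences had been seen.
Krt8, chr15:102004343-102004492, minus strand: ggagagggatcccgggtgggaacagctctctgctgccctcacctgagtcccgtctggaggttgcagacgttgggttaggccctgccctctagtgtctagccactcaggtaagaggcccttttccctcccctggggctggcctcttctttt
Krt18, chr15:102028066-102028215, plus strand: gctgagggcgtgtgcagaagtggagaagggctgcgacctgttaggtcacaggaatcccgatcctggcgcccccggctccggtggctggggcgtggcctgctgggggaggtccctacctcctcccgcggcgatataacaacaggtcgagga
Krt7, chr15:101412253-101412402, plus strand: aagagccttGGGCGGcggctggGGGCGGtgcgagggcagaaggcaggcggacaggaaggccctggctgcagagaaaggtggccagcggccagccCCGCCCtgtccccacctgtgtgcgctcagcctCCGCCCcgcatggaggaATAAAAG
Krt7 held 4 GC boxes and 1 ATAAAAG, Krt5 held 1 ATAAAAG, and Krt8 and Krt18 held neither in this window, searched on both strands. Relative to the annotated start, ATAAAAG lay at -29 to -23 in Krt5 and at -7 to -1, directly before the start, in Krt7. Whether it acts as a TATA box in these genes was not tested. Of the 32851 promoters in the table, 28.6% held GGGCGG in the same window and 3.01% held ATAAAAG. The letters TATAAA (7.57% of promoters), the AP-1 site TGANTCA (4.24%) and CCAAT (24.5%) were in none of the windows of the 5 genes. The window of Krt14 belongs to a start inside the span given for that gene (100203162 to 100207510) and is not upstream of its outer end.

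The simple keratins gave high signals on every array, and their levels in the groups overlapped. Krt7, a type II keratin of glandular and airway epithelium, had signals of 4026, 4612, 3907, 4209 and 3990.0 in CD151KO lungs, of 4165, 3899, 4045, 3940.0 and 3915 in CD9KO lungs, and of 4269.8, 4518, 3770.1 and 4074 in wild type lungs. The highest value was CD151KO number 2 and the lowest wild type number 4, so the wild type range held all CD9KO values. Krt8, the type II keratin that is raised in transitional alveolar cells, had signals of 3833, 3714, 3793, 4231 and 4438 in CD151KO, of 3955, 4088, 3910.1, 4445 and 4065 in CD9KO, and of 3734, 3962, 3712 and 3739 in wild type. All but 1 of the wild type values lay below all CD9KO values, while wild type number 3 lay among them.

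Krt18, the type I partner of Krt8, had signals of 2176, 2019.6, 2113, 2119.9 and 2087 in CD151KO, of 1975, 2062, 1949, 2300.1 and 2228 in CD9KO, and of 2162, 2247, 2047 and 1875 in wild type. The mean was 2103 ± 56.9 in CD151KO (SD, n = 5), 2103 ± 155 in CD9KO (n = 5) and 2083 ± 161 in wild type (n = 4), so the means differed by less than the SD of any group. Krt19, the smallest type I keratin, which lacks most of the tail domain, had signals of 2314, 2718, 2150.5, 2205 and 2411 in CD151KO, of 2194, 2096, 2149, 2137 and 2177 in CD9KO, and of 2750.2, 2599, 2116 and 2166 in wild type. Its highest values were wild type numbers 1 and 3 and CD151KO number 2. The CD9KO arrays spanned a narrow range at the lower end of the other groups, with a coefficient of variation of 1.77% against 13.1% in wild type, a difference in spread that was not tested.

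**Figure D1:**
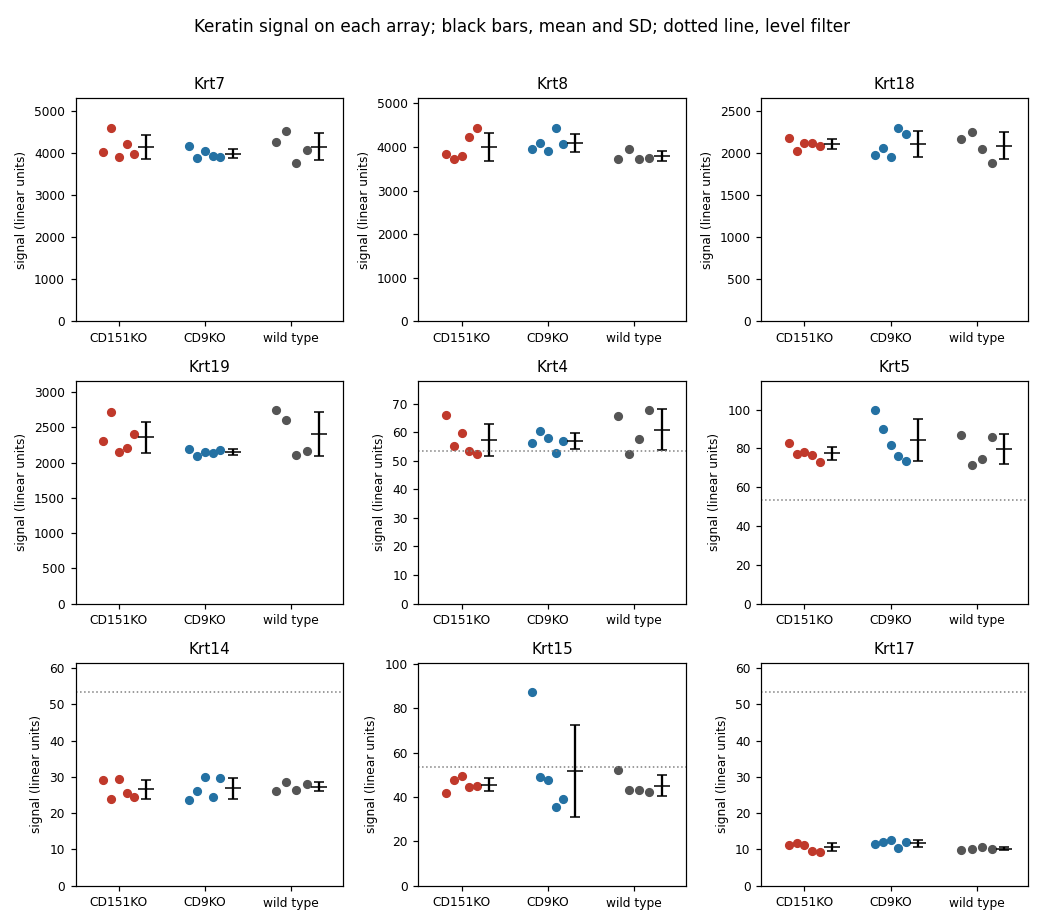
Signal of the 9 keratins in linear units (y axis, from 0, scaled for each gene) on each array of CD151KO, CD9KO and wild type lungs. Points are arrays, black bars are the mean and SD, and the dotted line is the level filter at a signal of 53.4. The groups of each gene overlap, Krt14 and Krt17 lie under the filter on every array, and 1 CD9KO array stands out for Krt15 at 87.3.

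The keratins of stratified and basal epithelium gave low signals in these whole lungs. Genes were tested where their brightest probe set had a mean level above a signal of 53.4 over the 14 arrays, on the log2(signal + 16) scale, and 6 of the 9 members passed this filter. Krt4 had signals of 66.0, 55.2, 59.8, 53.4 and 52.5 in CD151KO, of 56.1, 60.4, 58.1, 52.7 and 57.0 in CD9KO, and of 65.7, 52.5, 57.8 and 67.8 in wild type, so it lay just above the filter. Krt5, the type II keratin of airway basal cells, had signals of 82.7, 77.0, 77.9, 76.6 and 72.9 in CD151KO, of 99.9, 90.3, 81.6, 76.0 and 73.3 in CD9KO, and of 87.0, 71.3, 74.5 and 86.0 in wild type. Its 2 highest values were CD9KO numbers 1 and 2, and the other CD9KO arrays lay within the wild type range.

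Krt14, Krt15 and Krt17 did not pass the filter. Krt15, a type I keratin of basal cells, had signals of 41.8, 47.5, 49.3, 44.4 and 45.1 in CD151KO, of 87.3, 49.3, 47.7, 35.3 and 38.9 in CD9KO, and of 52.1, 43.1, 43.3 and 42.1 in wild type. The single array above the filter was CD9KO number 1, which was also the highest for Krt5. Krt14, the type I partner of Krt5, averaged 26.5 ± 2.56 in CD151KO (SD, n = 5), 26.8 ± 2.89 in CD9KO (n = 5) and 27.3 ± 1.24 in wild type (n = 4) on its brightest probe set, with overlapping groups. Its other 2 probe sets, and the lower probe set of Krt4, likewise overlapped between groups. Krt17 had signals of 9.35 to 11.9 in CD151KO, 10.3 to 12.6 in CD9KO and 9.87 to 10.7 in wild type on its brighter probe set, and no more than 9.67 on the other. On the brighter one the log2 difference of CD9KO from wild type was 0.08 in a limma fit of every probe set (unadjusted p = 0.027, limma adjusted p = 0.179). No detection calls were used here, so for these 3 genes the values show only that a difference was not detectable at this signal.

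In lungs without CD151 none of the 6 tested keratins passed the test against wild type (limma, adjusted p under 0.05 over all 12985 genes tested), and 0 had an unadjusted p under 0.05. Over all genes 0.778% passed in this comparison and 11.1% had an unadjusted p under 0.05. Krt8 had the lowest p, with 4002 ± 315 in CD151KO (SD, n = 5) and 3787 ± 117 in wild type (n = 4), a log2 difference of 0.08 (SE 0.05, limma adjusted p = 0.640). Its partner Krt18 had a log2 difference of 0.02, Krt7 of -0.0026, Krt19 of -0.02, Krt5 of -0.03 and Krt4 of -0.07, with limma adjusted p from 0.777 to 0.990. The median of the 6 was -0.014, and that of all genes tested 0.0079. The 95% intervals of the 6, each taken on its own, ended at a rise of 1.14-fold (Krt8) and at a fall of 1.16-fold (Krt4). Larger changes of these transcripts in the whole lung lay outside them, on a scale that understates changes of low signals such as those of Krt4 and Krt5. In whole lungs, fewer cells of a type and less RNA per cell cannot be told apart, and opposite changes in different cells would cancel.

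In lungs without CD9 again 0 of the 6 passed against wild type, with 5.51% of all genes passing and 25.4% at an unadjusted p under 0.05, of which the 6 keratins, each read from its brightest probe set, had 0. Krt8 had 4093 ± 210 in CD9KO (SD, n = 5) against 3787 ± 117 in wild type (n = 4), a log2 difference of 0.11 by limma (SE 0.05, unadjusted p = 0.0524, limma adjusted p = 0.201). The 3 probe sets of Krt8 had log2 differences of 0.11, 0.13 and 0.08, and in a fit of every probe set their limma adjusted p-values were 0.251, 0.203 and 0.428, with an unadjusted p of 0.0341 for the second, which was not the brightest. Of these probe sets 2 carry the suffix that Affymetrix gives to probes shared with other sequences, so related transcripts may add to their signal. Krt19 differed the other way, with 2151 ± 38.0 in CD9KO (n = 5) against 2408 ± 315 in wild type (n = 4), a log2 difference of -0.15 (SE 0.08, limma adjusted p = 0.223). Krt7 had a log2 difference of -0.06, Krt18 of 0.01, Krt4 of -0.07 and Krt5 of 0.06, with limma adjusted p from 0.504 to 0.897. The median of the 6 was -0.021, against 0.0037 over all genes tested. The 95% intervals ended at a rise of 1.17-fold (Krt5 and Krt8) and at a fall of 1.24-fold (Krt19).

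Set directly against each other, CD151KO and CD9KO lungs differed in 10.1% of all genes tested and in 0 of the 6 keratins (limma). At an unadjusted p under 0.05 the count was again 0 of the 6, beside 27.6% of all genes. Krt19 came closest, with 2360 ± 224 in CD151KO (n = 5) and 2151 ± 38.0 in CD9KO (n = 5), a log2 difference of 0.13 (SE 0.07, limma adjusted p = 0.264). The log2 differences of the other 5 lay between -0.10 (Krt5) and 0.05 (Krt7). The 95% intervals ended at a rise of 1.22-fold (Krt19) and at a fall of 1.19-fold (Krt5). By group means, Krt8 ran from CD9KO down to CD151KO and wild type and Krt19 from wild type down to CD151KO and CD9KO, and no neighbours in either order differed beyond their spread by this test. In all 3 comparisons 0 of the 6 keratins had groups that did not overlap, beside 4.54% of all genes in CD151KO against wild type, 11.8% in CD9KO against wild type and 10.6% between the knockouts. Without array number 1 of CD151KO and of wild type, 0 of the 6 passed in any comparison as well. The comparisons share their arrays and are not independent of each other.

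**Figure D2:**
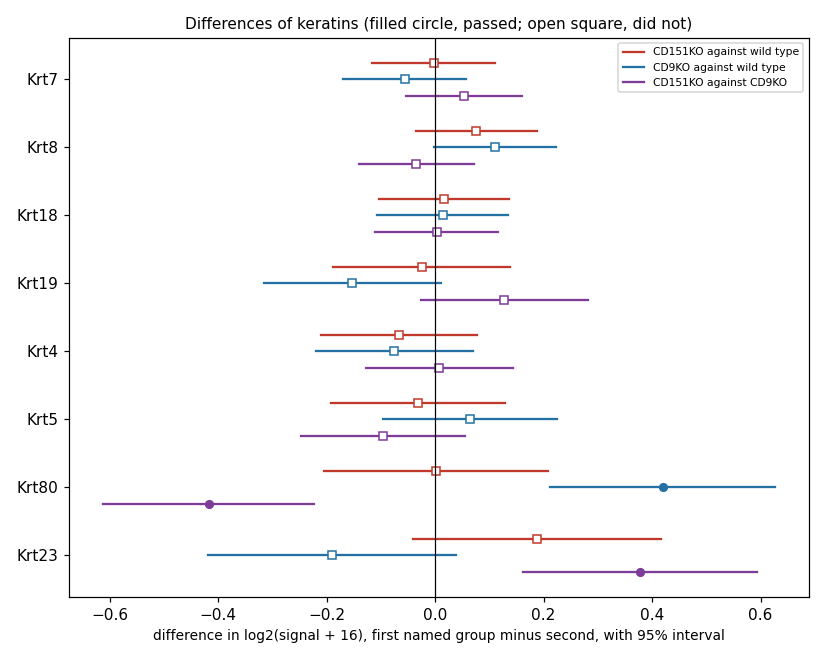
Differences in log2(signal + 16) between groups (x axis, first named group minus second) with 95% intervals from limma for the 6 tested members and for Krt80 and Krt23 (y axis). Open squares did not pass and filled circles passed at an adjusted p under 0.05. The intervals of all 6 members include 0, and those of Krt80 in CD9KO and of Krt80 and Krt23 between the knockouts do not.

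Within groups the members varied among arrays to a degree between the 44.9 and 79.8 percentile of the genes tested. The residual SD within groups was 0.083 for Krt8, 0.085 for Krt7, 0.089 for Krt18, 0.10 for Krt4, 0.12 for Krt5 and 0.13 for Krt19 on the log2 scale, and the median over the genes tested was 0.088. Because type I and type II keratins form filaments in pairs, 7 pairs were compared across the 14 arrays after removal of the group means. Krt7 and Krt19 had the highest correlation (Pearson r = 0.788, permutation p = 0.0010, adjusted p = 0.0073 over 14 tests, Spearman rho = 0.670, permutation p = 0.011, adjusted p = 0.0504). Without the 2 arrays farthest from the median of Krt7, CD151KO number 2 and wild type number 3, r was 0.638. Krt5 and Krt15 had r = 0.750 (permutation p = 0.0010, adjusted p = 0.0073) and rho = 0.622 (permutation p = 0.020, adjusted p = 0.070). That relation leaned on single arrays, since r was 0.547 without CD9KO number 1 and 0.477 without the 2 arrays farthest in Krt5 (CD9KO numbers 1 and 5), and Krt15 lies under the filter. The permutation p-values above come from permuting arrays across groups, which takes the groups to have the same spread. For Krt19 the coefficient of variation was 1.77% in CD9KO and 13.1% in wild type, so those p-values may be too low. When arrays were permuted only within their group, an alternative added after seeing the data, both pairs had an adjusted p of 0.120 and 0 of the 7 pairs passed. The unadjusted p was then 0.0172 for Krt7 and Krt19 and 0.0137 for Krt5 and Krt15.

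The classical partners followed each other less closely than the test could separate from 0. Krt8 and Krt18 had r = 0.456 (permutation p = 0.102, adjusted p = 0.243) and rho = 0.455 (permutation p = 0.104, adjusted p = 0.243), with r between 0.283 and 0.610 when single arrays were left out. CD9KO number 4 was high for both, and CD151KO number 5 was high for Krt8 alone. Krt5 and Krt14 had r = -0.252 (permutation p = 0.381, adjusted p = 0.667) and rho = -0.275 (permutation p = 0.341, adjusted p = 0.667), at signals of Krt14 under the filter. Krt8 with Krt19, Krt7 with Krt18 and Krt5 with Krt17 had r between -0.037 and 0.107, all with an adjusted permutation p of 1.0.

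**Figure D3:**
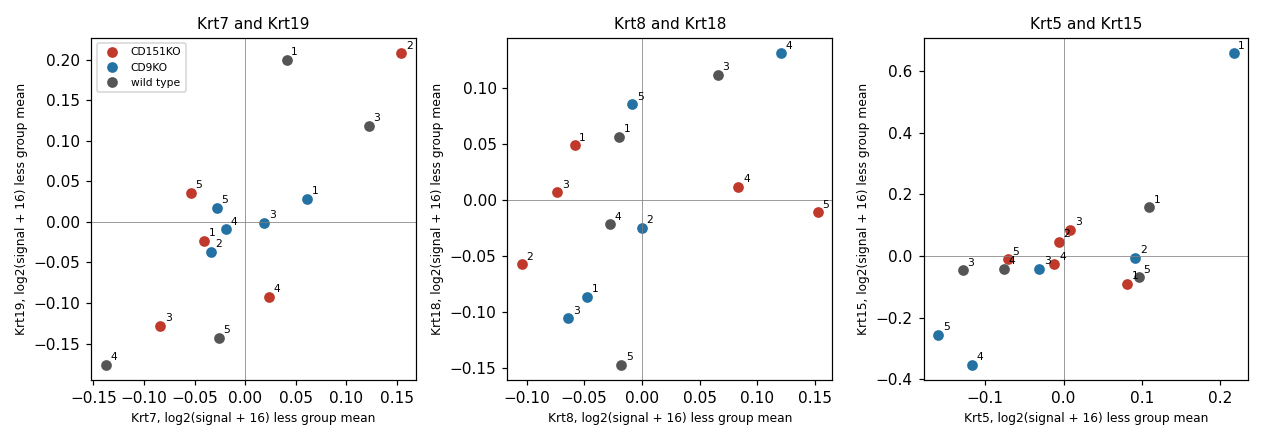
Log2(signal + 16) less the group mean for Krt7 and Krt19, Krt8 and Krt18, and Krt5 and Krt15 on the 14 arrays (x and y axes, log2 units), coloured by group and marked with the replicate number. Krt7 and Krt19 lie along a diagonal, and Krt5 and Krt15 do so largely through CD9KO number 1.

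Among the 12979 other genes tested, those whose levels followed each member most closely over the 14 arrays after removal of the group means were listed as a description, the top 3 for each. Hopx, a marker of alveolar type 1 cells, was among them for Krt7 with a Pearson correlation of 0.874, as were 2610001J05Rik and Cdipt. Krt19 was followed by Borcs7 (0.935), Mab21l4 and Cfap410, Krt8 by Cfap69 (0.889), Mcur1 and Tefm, and Krt18 by Mplkip (0.890), Epg5 and Slc25a13. Krt4 was followed by Krtap12-1 (0.941), Il31ra and Tnfrsf22, and Krt5 by Gnai2 (0.903), Emc10 and Lims1. These are the highest of many correlations over the same 14 arrays. As a description over the same arrays, the alveolar type 1 marker list had a correlation of 0.799 with Krt7, of 0.596 with Krt19 and of -0.587 with Krt8. By Pearson r Krt8 had its highest correlation with the list of injury-related transitional cell genes (0.602, Spearman rho = 0.429). It also had 0.594 with the ciliated cell markers (rho = 0.618) and 0.585 with the anchors of keratin (rho = 0.525). By rho the ciliated cell markers thus ranked first for Krt8. The largest Pearson r in size was -0.821 (rho = -0.714), of Krt4, which lay just above the level filter, with the transitional cell genes. By rho the largest was that of Krt7 with the alveolar type 1 markers (0.833).

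Of the other keratin genes 39 were on the array and 13 passed the level filter, and among these Krt80 and Krt23 passed a test. In CD151KO against wild type 0 of the 13 passed, beside 0.778% of all genes. In CD9KO against wild type 1 passed, beside 5.51%. Between the knockouts 1 was higher and 1 lower in CD151KO, beside 10.1%. Krt80, a type II keratin that is found at cell margins near desmosomes, rose in CD9KO lungs. Its signals were 2062, 2240.4, 2103, 2438 and 2318 in CD9KO against 1599, 1531, 1671 and 1864 in wild type (log2 0.42, SE 0.10, 1.34-fold, limma adjusted p = 0.027). The groups did not overlap, as for 11.8% of all genes in that comparison. In CD151KO they were 1289.8, 1731, 1586, 1871 and 1925, which was lower than in CD9KO (log2 -0.42, SE 0.09, adjusted p = 0.012) and did not pass against wild type (log2 0.0022, adjusted p = 0.996). The rise against wild type did not pass without wild type number 1 (adjusted p = 0.069) or 3 (0.0787) or without CD9KO number 4 (0.0645) or 5 (0.068), with log2 differences of 0.38 to 0.47 over all 14 such fits. The CD9KO arrays were also the highest on the first principal component, and CD151KO number 1, lowest for Krt80, was the lowest of its group there, and the part of that component in the rise was not tested. The difference between the knockouts passed in all 26 alternatives that tested the gene.

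Krt23, a type I keratin, was higher in CD151KO than in CD9KO, with signals of 263, 203, 202, 219 and 196 against 173, 162, 174, 156 and 146 (log2 0.38, SE 0.10, 1.30-fold, limma adjusted p = 0.030). Wild type arrays, at 233, 208, 167 and 151, overlapped both, and neither knockout passed against them (adjusted p = 0.553 for CD151KO and 0.278 for CD9KO). The difference did not pass without CD151KO number 1 (adjusted p = 0.0762) or 4 (0.0513) or without CD9KO number 4 (0.0638) or 5 (0.0798). The remaining 11 keratins did not pass in any comparison, among them the injury keratin Krt6a (log2 -0.11 in CD151KO against wild type, adjusted p = 0.518) and the epidermal keratin Krt10 (log2 -0.11 in CD9KO against wild type, adjusted p = 0.171).

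**Figure D4:**
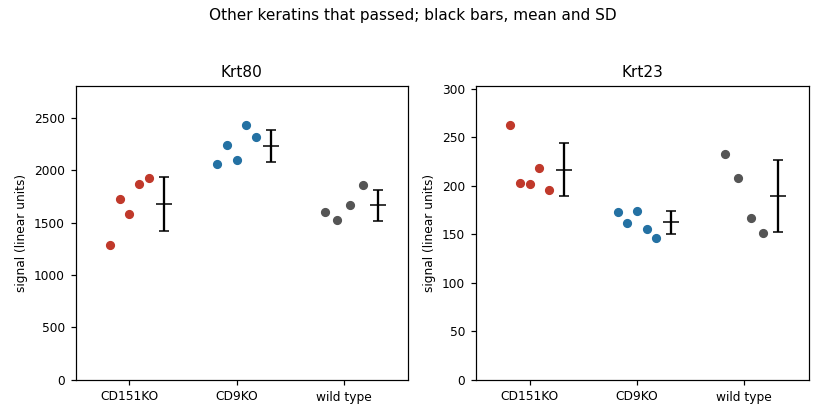
Signal of Krt80 and Krt23 in linear units (y axis, from 0) on each array of CD151KO, CD9KO and wild type lungs, with mean and SD as black bars. All CD9KO arrays of Krt80 (2062 to 2438) lie above the arrays of both other groups, and all CD9KO arrays of Krt23 (146 to 174) lie below those of CD151KO.

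Some of the genes that anchor keratin filaments passed in CD9KO against wild type and between the knockouts, and none did in CD151KO against wild type. Of 19 listed desmosome, hemidesmosome and plakin genes 18 were on the array and 14 were tested. In CD151KO against wild type 0 passed (0.778% of all genes) and 2 had an unadjusted p under 0.05 (11.1% of all genes), the hemidesmosome integrins Itga6 (log2 0.23, limma adjusted p = 0.336) and Itgb4 (log2 0.18, adjusted p = 0.327), and the median of the 14 was 0.028. In CD9KO against wild type 3 of 14 rose and 1 fell, beside 5.51% of all genes, with a median of 0.12 against 0.0037 over all genes. Itga6, the laminin-binding integrin subunit that pairs with Itgb4, rose 1.28-fold to 3099 ± 188 in CD9KO (n = 5), against 2430.1 ± 260 in wild type (n = 4) (adjusted p = 0.037). Pkp4, a plakophilin-related armadillo protein of cell junctions, rose 1.23-fold (adjusted p = 0.024), Dst, which codes for the hemidesmosome plakin dystonin, rose 1.19-fold (adjusted p = 0.0400), and the desmosomal plakophilin Pkp2 fell 1.14-fold (adjusted p = 0.034). Between the knockouts 3 of 14 passed, beside 10.1% of all genes: Pkp2 was higher and Pkp4 and the plakin Ppl were lower in CD151KO (adjusted p = 0.018, 0.021 and 0.033).

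Each of these calls was lost in some fits that left out 1 array. Against wild type Pkp4 did not pass without wild type number 1 or 3 or CD9KO number 4 or 5 (adjusted p up to 0.067), and Itga6 without wild type number 1, 3 or 4 or CD9KO number 2, 4 or 5 (up to 0.098). Pkp2 did not pass without wild type number 1, 3 or 5 or CD9KO number 2, 4 or 5 (up to 0.0899), and Dst without CD9KO number 2, 3, 4 or 5, CD151KO number 4 or wild type number 1, 3 or 4 (up to 0.109). Between the knockouts Pkp2 was lost without CD151KO number 1 or CD9KO number 5, Pkp4 without CD151KO number 1 or 2 or CD9KO number 4 or 5, and Ppl without CD151KO number 1, 2 or 3 or CD9KO number 1, 3, 4 or 5. When a gene's probe sets were averaged, the log2 difference from wild type was 0.05 for Dst and -0.09 for Pkp2, that of Pkp2 between the knockouts was 0.07, and these 3 did not pass. Pkp2 against wild type did not pass either with only the compared groups fitted (adjusted p = 0.0507), Itga6 (0.0504) and Pkp2 (0.0507) did not without array number 1 of both CD151KO and wild type, and Ppl between the knockouts did not with array weights (0.055). The summed signal of the 14 anchor genes was 12370 to 14385 in CD151KO, 14382 to 14980 in CD9KO and 12543 to 13949 in wild type. The CD9KO arrays were also the highest on the first principal component. Within wild type and within CD151KO, Pkp4 and Ppl rose in the order of the arrays on that component. Itga6 and Dst also rose in that order within wild type, but they did not follow it within CD151KO. Pkp2 did not follow that order within wild type or within CD151KO. The part of the component in the anchor values was not tested.

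Genes of the transitional cells that carry high Krt8 in injured alveoli were counted in the same way. Of 13 tested, 0 passed in CD151KO against wild type (0.778% of all genes), with a median of 0.027 and 3 higher and 1 lower at an unadjusted p under 0.05 (11.1% of all genes). The lowest limma adjusted p of the list there was 0.0977. The largest difference was that of Cdkn1a, at 1353 ± 492 (n = 5) against 784 ± 246 in wild type (n = 4), with overlapping groups. It was 1.69-fold (limma, unadjusted p = 0.0143, adjusted p = 0.281). Cdkn1a had a similar level in CD9KO, 1280 ± 222 (n = 5). Its log2 difference between the knockouts was 0.0085 (limma adjusted p = 0.986), so the higher level was not particular to CD151KO. In CD9KO against wild type 2 were higher and 4 lower at an unadjusted p under 0.05 (25.4% of all genes). In CD9KO against wild type, where 5.51% of all genes passed, 1 of 13 rose, the stress gene Ndrg1 (1.22-fold, adjusted p = 0.0484), and 1 fell, Itgb6, the epithelial integrin subunit that activates TGF-beta (1.44-fold, adjusted p = 0.0481). Ndrg1 did not pass without wild type number 1, 3 or 4 or CD9KO number 1, 3, 4 or 5, and Itgb6 did not when any 1 of the CD9KO arrays, wild type number 1 or 3, or CD151KO number 3, 4 or 5 was left out (adjusted p up to 0.13 for Ndrg1 and 0.133 for Itgb6). Over all 26 alternatives the call against wild type was lost in 11 for Ndrg1 and in 18 for Itgb6, among them no level filter, no trend, averaged probe sets and leaving out both number 1 arrays for each, and for Itgb6 also a pseudocount of 64, centring on medians, array weights and only the compared groups. Between the knockouts, where 10.1% of all genes passed, 2 of 13 did, and Itgb6 was 2.03-fold higher in CD151KO, at 240.0 ± 44.8 against 109 ± 8.83 in CD9KO (n = 5 each, adjusted p = 0.0011), and the stress gene Nupr1 1.55-fold higher (adjusted p = 0.0016). Both differences passed in all 26 alternatives, while Krt8 in the same comparison had a log2 difference of -0.03. The signals of Nupr1 were 2711 to 4030 in CD151KO, 1748 to 2158 in CD9KO and 2136 to 2574 in wild type. Those of CD151KO and wild type did not overlap, as for 4.54% of all genes, and Nupr1 did not pass in that comparison.

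Transcription factors of epithelium and markers of the cells that hold the basal keratins were also read beside the members. Of 10 epithelial transcription factors tested 0 passed in CD151KO against wild type (0.778% of all genes), also at an unadjusted p under 0.05 (11.1%). In CD9KO against wild type 1 was higher and 2 lower at an unadjusted p under 0.05, beside 25.4% of all genes. There 1 of the 10 passed, beside 5.51% of all genes. This was Elf5, a factor of glandular and distal lung epithelium, which fell to 449 ± 45.3 (n = 5) against 699 ± 177 in wild type (n = 4) (1.51-fold, limma adjusted p = 0.028). The call was lost without wild type number 1 (0.068) or 3 (0.0749) or CD9KO number 4 (0.0676) or 5 (0.0652), or with its probe sets averaged (0.0618). Between the knockouts Elf5 was 1.52-fold higher in CD151KO (adjusted p = 0.012), in all 26 alternatives. In that comparison 1 of the 10 passed, beside 10.1% of all genes. Of 8 airway basal cell markers 5 were tested and 0 passed in any comparison, also at an unadjusted p under 0.05, with a summed signal of 914 to 1102 in CD151KO, 896 to 1074 in CD9KO and 1036 to 1162 in wild type. Of 11 markers of stratified squamous epithelium on the array 1 passed the level filter and it passed in 0 of the 3 comparisons. The 10 mesothelial markers, from a layer that also holds simple keratins, had a summed signal of 4975 to 5631 in CD151KO, 3439 to 5437 in CD9KO and 4512 to 5206 in wild type, with 0 passing in any comparison and 1, 1 and 4 at an unadjusted p under 0.05 in CD151KO against wild type, CD9KO against wild type and CD151KO against CD9KO. Over all genes 0.778%, 5.51% and 10.1% passed in these comparisons, in that order. An unadjusted p under 0.05 was found for 11.1%, 25.4% and 27.6%.

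Levels of the epithelia that hold the simple keratins were summed in the same way. The 10 alveolar type 1 markers had 68336 to 75394 in CD151KO, 70649 to 74753 in CD9KO and 71997 to 75768 in wild type. The 10 club and secretory cell markers had 111434 to 116974 in CD151KO, 99797 to 113489 in CD9KO and 108141 to 109949 in wild type. The 9 ciliated cell markers had 10477 to 12627 in CD151KO, 9495 to 11263 in CD9KO and 10997 to 12206 in wild type, so the lowest club and ciliated sums were those of CD9KO arrays. In CD151KO against wild type 1 of 9 alveolar type 2 markers rose and 0 genes of the other 3 lists passed, beside 0.778% of all genes. At an unadjusted p under 0.05, found for 11.1% of all genes, 3 of 10 alveolar type 1 markers were lower. At the same level 2 of 9 alveolar type 2 and 3 of 10 club and secretory markers were higher, with 0 ciliated markers. In CD9KO against wild type 0 genes of these lists passed, beside 5.51% of all genes. There 1 alveolar type 1, 1 alveolar type 2, 2 club and secretory and 2 ciliated markers were lower and 1 ciliated marker higher at an unadjusted p under 0.05 (25.4% of all genes). Between the knockouts 2 alveolar type 2 and 2 club and secretory markers were higher in CD151KO, 1 alveolar type 1 marker was lower, and 0 ciliated markers passed, with 6 of 9 higher at an unadjusted p under 0.05. At that level 4 alveolar type 2 and 3 club and secretory markers were also higher, and 2 alveolar type 1 markers lower. In that comparison 10.1% of all genes passed and 27.6% had an unadjusted p under 0.05. The part of these cells in the keratin and anchor values was not tested. Of the intermediate filament genes other than keratins 9 were tested, and 0 passed in any of the 3 comparisons (limma). At an unadjusted p under 0.05 were 2 in CD151KO against wild type, 3 in CD9KO against wild type and 0 between the knockouts. Over all genes 0.778%, 5.51% and 10.1% passed in these comparisons, and 11.1%, 25.4% and 27.6% had an unadjusted p under 0.05.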

How the data were processed

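The authors deposited 1 linear intensity value per probe set and array, and the labels call the columns normalized. The submitters' processing notes name Affymetrix Expression Console and MAS5 without a version or role; which of them made the values is unknown. Of 45101 probe sets 34945 other than 64 controls had 1 gene symbol in the platform annotation, and a gene was its probe set with the highest mean, which gave 18193 genes. Genes below the 40th percentile of mean log2(signal + 16) were left out and 12985 were tested. With limma 3.58.1 (R 4.3.3) 1 linear model of the 3 groups was fitted over the 14 arrays (trend, two-sided, Benjamini-Hochberg over all genes tested), with 11 residual degrees of freedom. Correlations of pairs used 100000 permutations, two-sided. The members, lists and tests were chosen with earlier results of these data known. Named genes were all members and, from each list, up to 4 by smallest p, and Krt80, Krt23 and other genes that passed. The fit and the pair test were tested on simulated data. Alternatives are given in the closing section. The samples with the same replicate number did not deviate together in all groups (6 of 13 correlations over 0.1, from -0.130 to 0.592), so they were not treated as pairs. Between wild type and CD151KO these correlations were 0.592, -0.130, 0.451 and 0.263 for numbers 1, 3, 4 and 5. Promoter sequences are from RefSeq, GRCm38.p6, and other coordinates from its gene table, matched by Entrez ID for all 9 members.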

Additional observations from a re-analysis of the deposited data

Results flagged for a closer look

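Among 78 groups of arrays, from 26 probe sets of the members and of the other genes named for having passed, 3 held an array far from the rest of its group, and chance alone would set apart about 1 in 20 such groups. Krt15 had a signal of 87.3 on CD9KO number 1, against 35.3 to 49.3 on the other 4 CD9KO arrays, the array that was also highest for Krt5. Krt15 on wild type number 1 was 52.1, against 42.1 to 43.3 on the other 3. Krt8 on wild type number 3 was 3962, against 3712 to 3739 on the other wild type arrays, and without that array the log2 difference of CD9KO from wild type was 0.13 for Krt8, which did not pass.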

How the results depend on the processing

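The counts of members that passed stayed at 0 in each of the 3 comparisons under 27 alternatives each: pseudocounts of 1 and 64, quantile normalization, centring on array medians, no filter, a stricter one (60th percentile), probe sets of a gene averaged, every probe set fitted, only the compared groups, no trend, array weights, the replicate block, leaving out both number 1 arrays, and leaving out each of the 14 arrays. The lowest limma adjusted p of a member over these fits was 0.107, for Krt19 in CD9KO against wild type, whose log2 difference ran from -0.21 to -0.07. That of Krt8 in the same comparison ran from 0.08 to 0.13, with 0.131 as its lowest adjusted p. With the replicate block 0 members passed, and the block is no pairing by design. Of 7 keratin pairs 2 passed by Pearson r, and also under the 6 other settings tried for them, which permuted arrays across groups as the main test did. By Spearman rho the lowest adjusted permutation p in the main test was 0.0504, for Krt7 and Krt19. With arrays permuted within groups, a setting chosen after seeing the data, 0 pairs passed, and the cause was not tested. Krt14, Krt15 and Krt17 lay under the level filter, and what size of change could be detected at their signal was not tested.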
